A study of Mus musculus with 36 samples.

Results

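The heart field transcription factors Tbx5, Nkx2-5, Irx4, Hopx, Isl1, Mef2c, Tbx20 and Tbx2 were followed through the differentiation of mouse embryonic stem cells that lack the long noncoding RNA gene LncCPR. The members are the rows whose gene name equals one of these 8 symbols, and each symbol had 1 entry among the 37561 entries of each of the 6 tables. LncCPR-KO cells were made in AB2.2, a mouse embryonic stem cell line, by Cas9 with a pair of guides flanking the gene and single-cell sorting. How many sorted lines entered the libraries is not stated, so a difference between the lines may belong to 1 clone. The reference was AB2.2 cells labelled control. After withdrawal of LIF, both lines grew as embryoid bodies in hanging drops, and whole cultures were collected at days 0, 3, 5, 8, 10 and 12, with 3 libraries per line and day and 36 in all. Nothing in the labels says that the 3 libraries of a group came from separate cultures, so p-values measure only the spread between these libraries.

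Most heart muscle cells of the mouse embryo come from a pair of progenitor populations. The first heart field forms the early tube and much of the left ventricle and is marked by Tbx5, a T-box factor of the atria and left ventricle. The second heart field lies behind it, expresses Isl1, a LIM-homeodomain factor that is switched off as cells become muscle, and supplies the right ventricle and outflow tract. Both share Nkx2-5, a homeodomain factor of cardiac progenitors and muscle, Mef2c, a MADS-box activator of muscle structural genes, and Tbx20, a T-box factor of progenitors and chamber muscle. Tbx2 is a T-box repressor that keeps the atrioventricular canal from becoming chamber muscle. Irx4 is an Iroquois homeodomain factor of the ventricles. Hopx is a homeodomain protein that does not bind DNA and works with serum response factor in committed heart cells. Several of these genes are used elsewhere: Isl1 in motor and sensory neurons, Mef2c in neurons, endothelium and skeletal muscle, and Tbx2 in many organs.

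Values are FPKM, fragments scaled by transcript length and by the mapped fragments of the library, so levels can be set side by side between genes. Each day has its own table, and nothing states that the tables were scaled together, so levels of different days are described and not tested. The FPKM sum per library lay between 294740 and 403675. The 10 highest entries held 11.3% to 30.3% of it, and more than 20% in 8 libraries. No entry is named LncCPR. The entry 4930500J02Rik, which the labels do not tie to the knockout, was at 0 to 0.28 FPKM in KO libraries, against 5.66 to 49.5 FPKM in control libraries.

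The members lie on 5 chromosomes. By the GENCODE annotation of GRCm38, Isl1 spans chr13:116298281-116309689 on the minus strand, Mef2c chr13:83504034-83667080 on the plus strand and Irx4 chr13:73260479-73269608 on the plus strand. Tbx5 spans chr5:119832668-119885219 (plus) and Hopx chr5:77086988-77115121 (minus). Nkx2-5 spans chr17:26838664-26845009 (minus), Tbx20 chr9:24718138-24774303 (minus) and Tbx2 chr11:85832551-85841948 (plus). The submitters' processing notes name mm9, so these positions locate the genes and not the reads. The only annotated gene that overlaps a member and has its own entry is Hopxos, antisense to Hopx, which reached at most 0.877 FPKM. Whether the counting used strand is not stated, so reads of that pair cannot be told apart.

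The start regions of 4 members with unlike results are shown. Tbx20, Mef2c and Nkx2-5 were among the members called lower in KO than in control cultures at day 10, while Isl1 did not pass the test from day 8 on. Whether these sequences have a part in those results was not tested. Each is the 240 bases that end just upstream of the RefSeq start on GRCm38.p6, written along the gene's strand. Capitals mark matches, on either strand, to the NKX2-5 motif AAGTG, the TATA motif TATAAA, the T-box motif AGGTGT, the GATA motif AGATAA or the MEF2 motif. The MEF2 motif was taken as CTA, 4 letters that are A or T, and TAG.
Tbx20, chr9:24774314-24774553, minus strand: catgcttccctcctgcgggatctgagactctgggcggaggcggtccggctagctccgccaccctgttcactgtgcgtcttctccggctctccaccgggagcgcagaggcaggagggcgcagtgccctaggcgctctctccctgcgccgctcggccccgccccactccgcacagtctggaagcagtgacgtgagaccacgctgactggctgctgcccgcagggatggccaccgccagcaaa
Mef2c, first of 3 listed starts, chr13:83503784-83504023, plus strand: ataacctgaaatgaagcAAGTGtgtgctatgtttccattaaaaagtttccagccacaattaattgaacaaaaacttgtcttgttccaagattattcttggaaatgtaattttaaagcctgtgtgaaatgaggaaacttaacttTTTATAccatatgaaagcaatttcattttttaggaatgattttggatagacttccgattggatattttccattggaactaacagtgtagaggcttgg
Nkx2-5, chr17:26841576-26841815, minus strand: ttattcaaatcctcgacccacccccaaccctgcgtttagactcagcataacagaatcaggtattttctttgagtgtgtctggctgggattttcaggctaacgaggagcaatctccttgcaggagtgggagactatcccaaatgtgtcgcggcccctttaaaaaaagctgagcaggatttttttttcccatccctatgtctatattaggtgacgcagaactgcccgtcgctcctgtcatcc
Isl1, chr13:116309699-116309938, minus strand: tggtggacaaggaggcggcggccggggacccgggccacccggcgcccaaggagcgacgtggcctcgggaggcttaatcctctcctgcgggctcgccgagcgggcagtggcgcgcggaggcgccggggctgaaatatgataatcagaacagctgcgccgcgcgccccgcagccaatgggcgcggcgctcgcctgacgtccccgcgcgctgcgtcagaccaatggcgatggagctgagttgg
The Isl1 window had 72.1% G or C and 33 CpG pairs, the Tbx20 window 69.2% and 20, the Nkx2-5 window 47.9% and 8, and this Mef2c window 32.1% and 1. Over the 32851 RefSeq windows the medians were 52.1% and 5. The Mef2c window held 1 match to AAGTG and 1 to TATAAA, which overlap no other match. The other 3 windows held no match to the 5 motifs in these exact forms, and variant forms of the motifs were not searched. Of the 32851 windows, 39.5% held AAGTG, 12.1% TATAAA, 11.5% AGGTGT, 9.74% AGATAA and 0.49% the MEF2 motif. Windows of 6 of the 8 members were matched, not those of Tbx5 and Tbx2. The other 2 Mef2c windows, not printed, had 42.9% and 49.6% G or C.

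The 8 factors together were low up to day 3 and high from day 8 on in both lines. For days 0, 3 and 5, their summed level was 1.20 ± 0.34, 3.43 ± 0.90 and 1.97 ± 0.50 FPKM in KO cultures, against 1.69 ± 0.34, 1.88 ± 0.06 and 8.27 ± 0.35 FPKM in control cultures (SD, n = 3 each). For days 8, 10 and 12, the sum was 32.8 ± 0.7, 34.1 ± 2.1 and 42.0 ± 3.9 FPKM in KO cultures, against 74.4 ± 3.1, 61.7 ± 7.4 and 51.3 ± 5.5 FPKM in control cultures (SD, n = 3 each). Mef2c and Tbx20 made up most of it at the late days. At day 8 they held 23.1% and 28.9% of the summed level in KO libraries, against 35.5% and 33.3% in control libraries. Isl1 held 25.8% of the sum in KO libraries, against 11.5% in control libraries. These shares describe which factors the cultures held and carry no test.

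**Figure D1:**
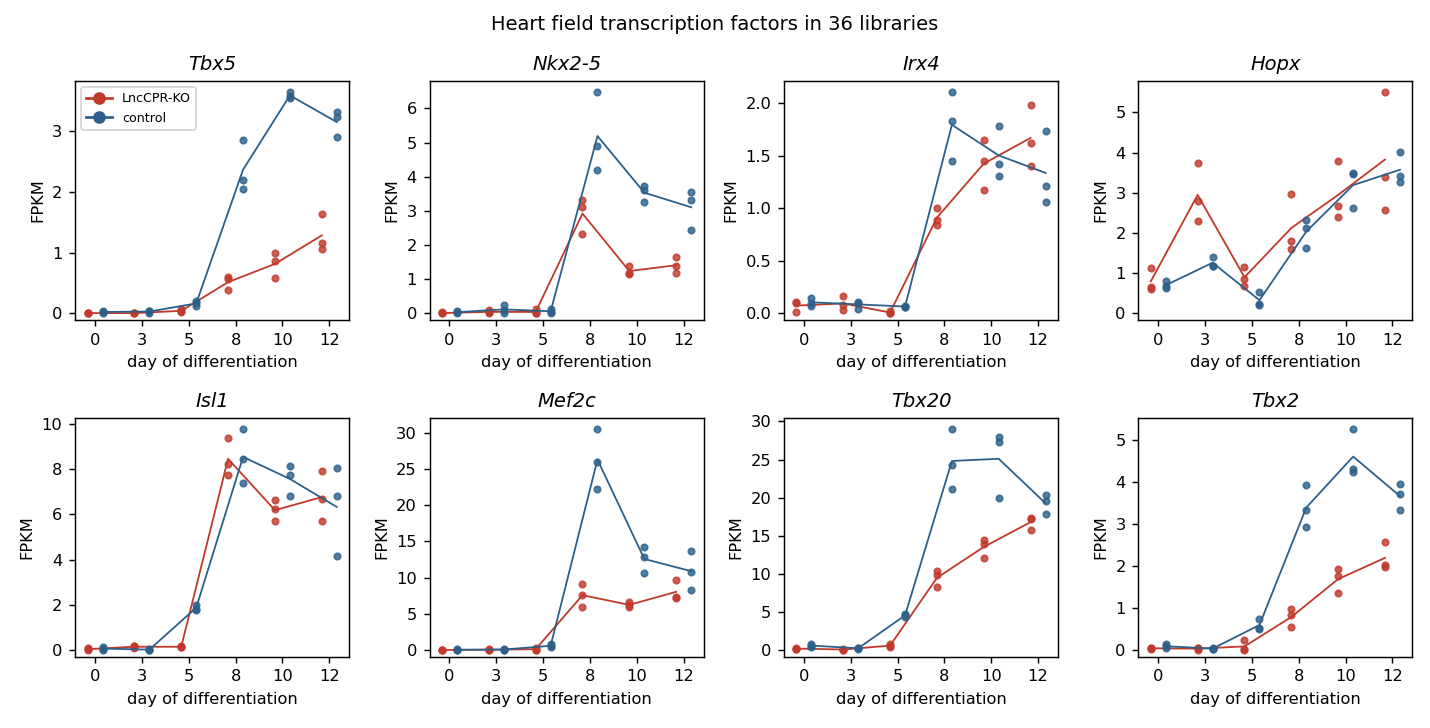
FPKM of each factor (vertical axes, each with its own scale from 0) by day of differentiation (horizontal axes); points are libraries, LncCPR-KO in red left of control in blue, and lines join the means of 3 libraries. KO libraries lie below control libraries for Tbx5, Mef2c, Tbx20 and Tbx2 at days 8 and 10, while the lines overlap for Isl1 at days 8 and 12 and for Hopx from day 8 on.

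Each day was tested in its own table with limma on log2(FPKM + 1), KO minus control, among genes with a mean of at least 1 FPKM over the 6 libraries. P-values were adjusted by Benjamini-Hochberg over those genes, with a threshold of 0.05. None of the 8 members reached that minimum at day 0. Hopx reached it at day 3, Tbx20 and Isl1 at day 5, and each of the 8 from day 8 on. Tbx20 and Isl1 reached the minimum at day 5, Tbx5, Tbx2 and Irx4 at day 8, and Tbx5 at day 10, through their control level, so counts over the tested members are descriptions. Rescaling the libraries by the median of ratios changed the split of all called genes: the share that was higher went to 41.0%, 42.1%, 40.7% and 29.6% for days 3, 5, 10 and 12, from 61.9%, 68.1%, 74.6% and 48.1%.

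At days 0 and 3 no member passed the test. The share of tested genes called in either direction was 14.5% at day 0 and 1.75% at day 3. Hopx had 2.31, 3.73 and 2.81 FPKM in KO libraries at day 3, against 1.41, 1.19 and 1.19 FPKM in control libraries. The groups did not overlap, and the log2 difference was 0.79 ± 0.23 (SE; unadjusted p = 0.00136, adjusted p = 0.0657, limma), which misses the threshold. At day 5 Hopx again had more in every KO library, at 0.68, 0.868 and 1.15 FPKM, against 0.539, 0.205 and 0.242 FPKM in controls, below the level at which genes were tested. Of the 8 members, 1 had every KO library below every control library at day 0 (Tbx20) and 1 at day 3 (again Tbx20), where 13.5% and 2.98% of genes above 0 did. Tbx20 was then at 0.168 to 0.247 FPKM in KO libraries and 0.384 to 0.811 FPKM in control libraries at day 0. Isl1 at day 3 ran the other way, at 0.0931 to 0.199 FPKM in KO libraries and 0 to 0.0471 FPKM in controls, levels at which few fragments decide the order. With Hopx, 2 of the 8 members were higher without overlap at day 3, where 9.54% of genes above 0 were.

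At day 5 the KO cultures had little Tbx20 and Isl1, and both passed the test. Both members tested were called lower, where 3.32% of all genes tested were called lower and 7.07% higher. Both reached the minimum level only through their control libraries, so the count and the shared direction are descriptions. Tbx20 had 0.475, 0.771 and 0.541 FPKM in KO libraries, against 4.32, 4.6 and 4.79 FPKM in control libraries. Its KO mean was 0.13 times the control mean, and the log2 difference was -1.81 ± 0.13 (SE; adjusted p = 1.67e-05, limma). Isl1 had 0.121, 0.134 and 0.191 FPKM in KO libraries, against 1.8, 1.84 and 2 FPKM in control libraries. The KO mean of Isl1 was 7.92% of the control mean, a log2 difference of -1.32 ± 0.14 (SE; adjusted p = 2.03e-04, limma). In neither gene did the groups come near each other. Without any one control library the Isl1 mean falls below 1 FPKM and the gene is not tested, which leaves 1 member called. In bulk libraries, fewer cells of a type and less RNA per cell cannot be told apart, here or below.

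The other members were below 1 FPKM at day 5 in both lines. Tbx2 had 0.00797, 0.0216 and 0.239 FPKM in KO libraries, against 0.752, 0.509 and 0.537 FPKM in control libraries. Mef2c had 0.0816, 0.276 and 0.0476 FPKM in KO libraries, against 0.474, 0.526 and 0.813 FPKM in controls. Tbx5 was at 0.019 to 0.0763 FPKM in KO libraries and 0.124 to 0.199 FPKM in controls. Each of these 3 genes was lower in every KO library than in any control library. Irx4 was too, at 0 to 0.0263 FPKM in KO libraries and 0.0573 to 0.0747 FPKM in controls, whereas Nkx2-5 was near 0 in both lines. In all, 6 of the 8 members were lower without overlap and 1 higher (Hopx), where 9.66% and 13.8% of genes above 0 were. With the minimum lowered to 0.3 FPKM, Tbx2 was called lower at -0.56 ± 0.14 (SE; adjusted p = 0.0372, limma), while Mef2c at -0.50 ± 0.14 and Hopx at 0.52 ± 0.15 did not pass (SE; adjusted p = 0.0596 and 0.0654, limma). Tbx2 and Mef2c reached that lower minimum through their control level, so their results here are descriptions.

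By day 8 Isl1 was at the same level in both lines while Mef2c, Tbx20, Tbx2 and Tbx5 were lower in KO cultures. Of the 8 members, 4 were called lower and 0 higher, where 2.0% and 1.28% of the 12695 genes tested were. The median log2 difference of the 8 was -0.90, beside 0.09 over all genes tested. No member was higher at an unadjusted p under 0.05 at day 8, 10 or 12 either (limma). Mef2c, the muscle gene activator, had 7.6, 5.99 and 9.16 FPKM in KO libraries, against 22.3, 26 and 30.5 FPKM in control libraries. The highest KO library was below the lowest control library by a wide gap, with a log2 difference of -1.67 ± 0.18 (SE; adjusted p = 6.23e-04, limma). Tbx20 had 8.25, 9.8 and 10.4 FPKM in KO libraries, against 29, 24.3 and 21.2 FPKM in controls. Its difference was -1.29 ± 0.16 on the log2 scale (SE; adjusted p = 0.00157, limma), and the groups did not overlap.

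The low-level T-box factors moved the same way at day 8. Tbx2, the repressor of the atrioventricular canal, had 0.543, 0.984 and 0.845 FPKM in KO libraries, against 3.94, 2.94 and 3.33 FPKM in control libraries. Tbx5, the factor of the first heart field, had 0.388, 0.564 and 0.596 FPKM in KO libraries, against 2.2, 2.86 and 2.04 FPKM in controls. Neither gene overlapped between the lines, and the KO means were 23.3% and 21.8% of the control means. Both genes reached the minimum level through their control libraries. The log2 differences were -1.30 ± 0.19 for Tbx2 (SE; adjusted p = 0.00476, limma) and -1.15 ± 0.19 for Tbx5 (adjusted p = 0.00983, limma). The Tbx5 call does not hold without control library 2 (adjusted p = 0.0619), and with no minimum level neither call holds (adjusted p = 0.0697 for Tbx2 and 0.0723 for Tbx5, limma).

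Isl1, the marker of the second heart field, had 8.22, 9.39 and 7.76 FPKM in KO libraries at day 8, against 9.78, 8.45 and 7.39 FPKM in control libraries. The libraries of the lines were interleaved, and the log2 difference was -0.01 with a 95% interval of -0.35 to 0.34 (adjusted p = 0.984, limma). That interval leaves out a difference of the size seen in Mef2c or Tbx20. Hopx also overlapped, at 2.97, 1.79 and 1.61 FPKM in KO libraries and 2.14, 1.64 and 2.34 FPKM in controls, a log2 difference of 0.02 with an interval of -0.45 to 0.50.

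Nkx2-5 and Irx4 lay between these groups. Nkx2-5 had 3.33, 3.1 and 2.34 FPKM in KO libraries, against 6.48, 4.91 and 4.19 FPKM in control libraries at day 8. Irx4, the ventricular factor, had 0.844, 0.997 and 0.89 FPKM in KO libraries, against 2.1, 1.44 and 1.83 FPKM in controls. Neither gene overlapped between the lines, but neither passed: the log2 differences were -0.65 ± 0.19 for Nkx2-5 (SE; adjusted p = 0.110, limma) and -0.54 ± 0.19 for Irx4 (adjusted p = 0.165, limma). Rescaling the libraries by the median of ratios moved Nkx2-5 past the threshold, at -0.75 (adjusted p = 0.0300, limma). With these, 6 of the 8 members had every KO library below every control library, where 7.28% of genes above 0 did.

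**Figure D2:**
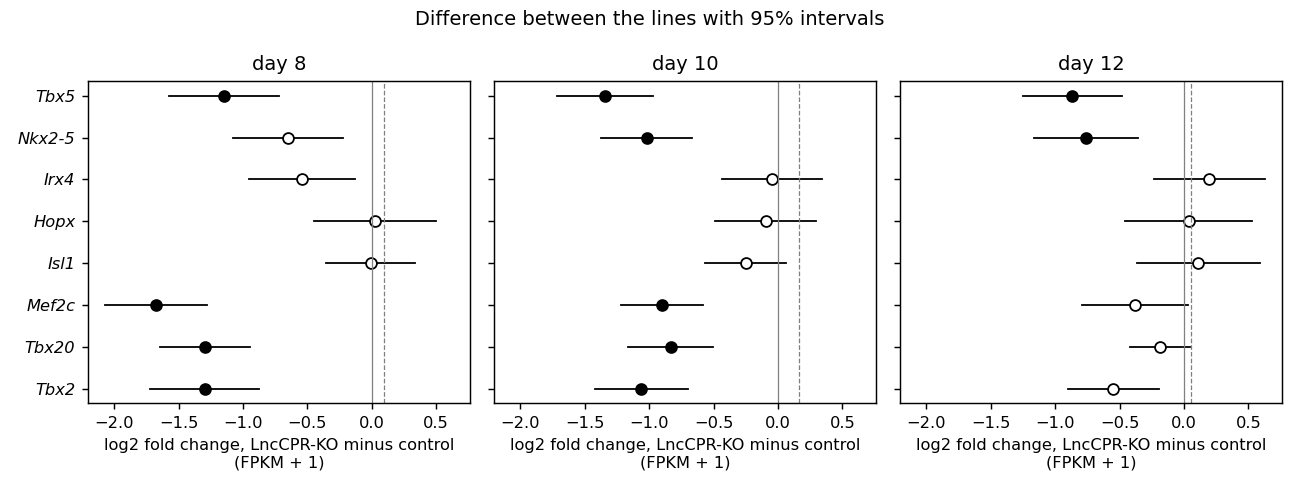
Log2 difference of each factor, LncCPR-KO minus control, on log2(FPKM + 1), with 95% intervals from limma, at days 8, 10 and 12; filled points passed the adjusted threshold of 0.05, and the dashed line is the median of all genes tested that day. Tbx5 and Nkx2-5 are the filled points at day 12, and Isl1, Hopx and Irx4 are open at each of the 3 days.

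At day 10 Nkx2-5 was called lower too. It was already lower without overlap at day 8, and a change between days 8 and 10 was not tested. Of the 8 members, 5 were called lower and 0 higher, where 5.12% and 15.0% of the 12938 genes tested were, and the median of the 8 was -0.87 beside 0.17 over all genes tested. Tbx5 had 0.582, 1 and 0.865 FPKM in KO libraries, against 3.65, 3.59 and 3.54 FPKM in control libraries. The log2 difference was -1.35 ± 0.17 (SE; adjusted p = 2.40e-04, limma), for a gene that was tested through its control level. Nkx2-5 had 1.16, 1.38 and 1.19 FPKM in KO libraries, against 3.26, 3.73 and 3.61 FPKM in controls, a log2 difference of -1.02 ± 0.16 (adjusted p = 0.00134, limma). The libraries of each line lay close together for both genes, and the KO means were 22.7% and 35.1% of the control means.

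Mef2c, Tbx20 and Tbx2 were still lower at day 10. Mef2c had 5.95, 6.21 and 6.6 FPKM in KO libraries, against 12.9, 14.2 and 10.6 FPKM in control libraries (log2 difference -0.90 ± 0.15, SE; adjusted p = 0.00153, limma). Tbx20 had 14.5, 13.9 and 12.2 FPKM in KO libraries, against 27.4, 28 and 20 FPKM in controls (-0.83 ± 0.15, SE; adjusted p = 0.00313, limma). Tbx2 had 1.77, 1.95 and 1.37 FPKM in KO libraries, against 5.28, 4.32 and 4.24 FPKM in controls (-1.06 ± 0.17, SE; adjusted p = 0.00118, limma). None of the 3 genes overlapped between the lines. With no minimum level the Tbx20 call is lost at day 10 (adjusted p = 0.0535, limma).

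Isl1 had 6.62, 6.23 and 5.71 FPKM in KO libraries at day 10, against 7.76, 8.15 and 6.79 FPKM in control libraries. Every KO library was below every control library, but by little, at a log2 difference of -0.25 ± 0.14 (SE; adjusted p = 0.230, limma). After rescaling it passed, at -0.44 (adjusted p = 0.0147, limma), so whether Isl1 was lower at day 10 depends on the scale of the libraries. Irx4 overlapped, at 1.17 to 1.65 FPKM in KO libraries and 1.3 to 1.78 FPKM in controls. Hopx overlapped too, at 2.4 to 3.78 FPKM in KO libraries and 2.62 to 3.49 FPKM in controls. That left 6 of the 8 members lower without overlap, where 7.89% of genes above 0 were.

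Fewer members differed at day 12. Of the 8, 2 were called lower and 0 higher, where 3.48% and 3.22% of the 13089 genes tested were, and the median of the 8 was -0.28 beside 0.05 over all genes tested. Tbx5 had 1.63, 1.06 and 1.17 FPKM in KO libraries, against 3.32, 2.91 and 3.23 FPKM in control libraries. Nkx2-5 had 1.66, 1.18 and 1.39 FPKM in KO libraries, against 2.45, 3.31 and 3.56 FPKM in controls. Neither gene overlapped, and the log2 differences were -0.87 ± 0.17 for Tbx5 (SE; adjusted p = 0.0201, limma) and -0.76 ± 0.18 for Nkx2-5 (adjusted p = 0.0395, limma). Both calls are lost when some single libraries are left out, at differences of -0.80 to -0.85 for Tbx5 and -0.68 to -0.84 for Nkx2-5. Leaving out 1 library also took the calls over all genes at day 12 to 317 to 583, from 878. The Tbx5 call is lost without control library 1 or 3 or KO library 2 or 3 (adjusted p = 0.0555 to 0.0733), and the Nkx2-5 call without control library 2 or 3 or any KO library (adjusted p = 0.0799 to 0.122, limma).

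Tbx20 had 17.4, 17.2 and 15.8 FPKM in KO libraries at day 12, against 20.3, 17.9 and 19.6 FPKM in control libraries. The groups just failed to overlap, at a log2 difference of -0.19 ± 0.10 (SE; adjusted p = 0.316, limma), and the KO mean was 87.2% of the control mean. Tbx2 had 1.99, 2.58 and 2.03 FPKM in KO libraries, against 3.72, 3.96 and 3.34 FPKM in controls. Its difference of -0.55 ± 0.16 missed the threshold (SE; adjusted p = 0.0676, limma) and passed after rescaling (adjusted p = 0.0444, limma). Mef2c overlapped, at 7.25 to 9.62 FPKM in KO libraries and 8.26 to 13.7 FPKM in controls, a log2 difference of -0.38 ± 0.18 (SE; adjusted p = 0.243, limma). Isl1 overlapped as well, at 5.69 to 7.92 FPKM in KO libraries and 4.15 to 8.03 FPKM in controls. Irx4 and Hopx were interleaved between the lines, at 1.06 to 1.98 and 2.57 to 5.52 FPKM over the 6 libraries. In all, 4 of the 8 members were lower without overlap, where 9.37% of genes above 0 were.

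The day of the highest mean differed between the lines for 5 of the 8 factors. In KO cultures the mean was highest at day 12 for Tbx5, Mef2c, Tbx20, Tbx2, Hopx and Irx4, and at day 8 for Nkx2-5 and Isl1. In control cultures Nkx2-5, Isl1, Mef2c and Irx4 were highest at day 8, Tbx5, Tbx20 and Tbx2 at day 10, and Hopx at day 12. Neighbouring late days often overlapped within a line. Isl1 overlapped between days 8 and 12 in KO libraries and between days 8 and 10 in control libraries. Mef2c overlapped between days 8 and 12 in KO libraries, while its control mean at day 8, 26.3 ± 4.1 FPKM, stood above 12.6 ± 1.8 FPKM at day 10 with no overlap (SD, n = 3 each). Tbx20 means in KO cultures were 9.49 ± 1.11, 13.5 ± 1.2 and 16.8 ± 0.9 FPKM for days 8, 10 and 12 (SD, n = 3 each). In controls they were 24.8 ± 4.0, 25.1 ± 4.4 and 19.3 ± 1.2 FPKM (SD, n = 3 each).

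Whether the KO difference itself changed between days was tested with limma over the 36 libraries, each difference being taken within its own table. The F test over the 6 days passed for 6 of the 7 members tested, where 17.1% of the 13022 genes tested passed. The adjusted p-values ran from 3.04e-08 for Tbx5 to 1.70e-04 for Nkx2-5, and Hopx missed the threshold at 0.0687 (limma). Irx4 was below the minimum mean. Tbx5, Tbx2 and Nkx2-5 reached it through their control level, so counts over the 7 are descriptions. The 6 that passed were below 1 FPKM in both lines at days 0 and 3, where log2(FPKM + 1) holds any difference small. Their F tests can thus pass without a change in the ratio of the lines. Between days 5 and 8 the difference changed for 4 of the 7, where 3.28% of genes did. For Isl1 it moved up by 1.32 ± 0.20 on the log2 scale (SE; adjusted p = 6.76e-05, limma). For Mef2c it moved by -1.17 ± 0.22, for Tbx5 by -0.99 ± 0.16 and for Tbx2 by -0.74 ± 0.17 (SE; adjusted p = 7.07e-04, 1.34e-04 and 0.0105, limma). These last 3 were below 1 FPKM in both lines at day 5, where log2(FPKM + 1) leaves little room for a difference, and with a pseudocount of 0.1 none of the 3 passes (adjusted p = 0.244 to 0.989, limma). As a share of the control mean, the KO mean was 22.3% at day 5 and 28.9% at day 8 for Mef2c, 14.9% and 23.3% for Tbx2, and 26.1% and 21.8% for Tbx5. Between days 8 and 12 the difference shrank for 3 of the 7, where 3.36% of genes changed. The changes were 1.29 ± 0.22 for Mef2c, 1.11 ± 0.18 for Tbx20 and 0.75 ± 0.17 for Tbx2 (SE; adjusted p = 1.99e-04, 1.64e-04 and 0.00945, limma). At a pseudocount of 0.1 Tbx20 still passes and Mef2c and Tbx2 do not (adjusted p = 0.0409, 0.0982 and 0.203, limma). Both Tbx2 changes are lost without the libraries of any one replicate number, and those of Mef2c and Tbx20 without number 2 (adjusted p = 0.0706 to 0.265, limma).

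A ratio of 2 genes within 1 library does not depend on the scale of that library. The ratios of Isl1 to other factors and of the factors to Tnnt2 were chosen after their values were seen. Isl1 was 2.47, 3.03 and 3.32 times Nkx2-5 in KO libraries at day 8, against 1.51, 1.72 and 1.76 times in control libraries. At day 10 it was 5.72, 4.52 and 4.81 times Nkx2-5 in KO libraries, against 2.38, 2.18 and 1.88 times in controls, and at day 12 it was 4.02, 6.71 and 4.08 times, against 3.28, 1.25 and 1.91 times. The groups did not overlap at any of the 3 days, and the differences in mean log2 ratio were 0.81, 1.22 and 1.27 (two-sided exact permutation p = 0.1 each, the smallest that 3 libraries against 3 allow; 0.118 after Benjamini-Hochberg adjustment over the 33 ratios and days compared). Relative to Tbx5, Isl1 was 21.2, 16.6 and 13.01 times as high in KO libraries at day 8, against 4.45, 2.95 and 3.62 times in controls, a log2 difference of 2.20. At days 10 and 12 that difference was 1.89 and 1.45, again with no overlap. The ratio of Isl1 to Tbx20 was 0.746 to 0.996 in KO libraries at day 8, against 0.337 to 0.349 in controls. By day 12 the groups overlapped, at 0.36 to 0.46 in KO libraries and 0.232 to 0.396 in controls. As a share of the summed level of the 8, which is free of scale too, Isl1 held 17.9% to 18.5% in KO libraries at day 10, against 11.9% to 12.8% in controls.

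**Figure D3:**
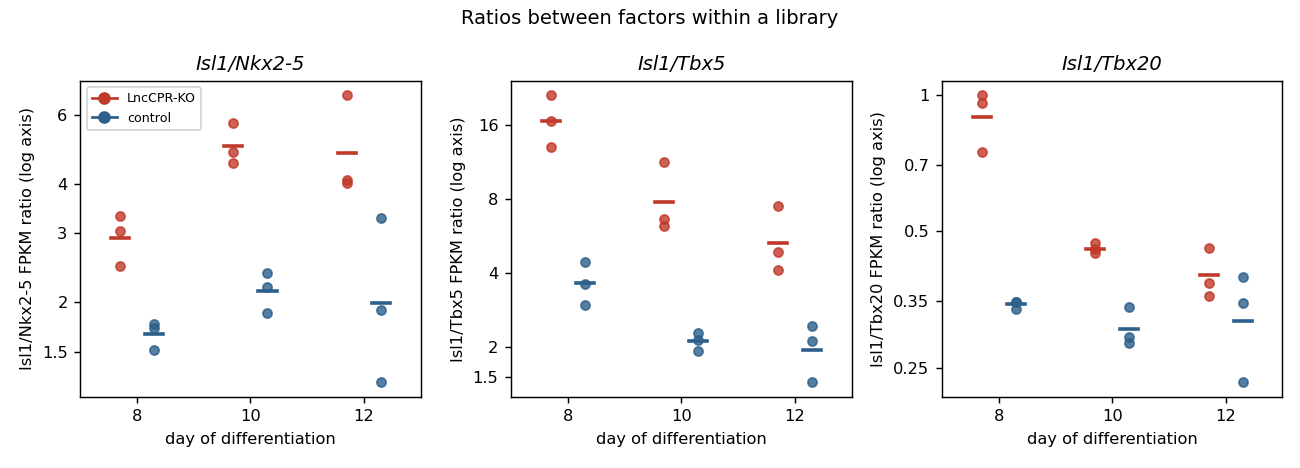
FPKM ratio of Isl1 to Nkx2-5, Tbx5 and Tbx20 within each library (vertical log axes) at days 8, 10 and 12; points are libraries, LncCPR-KO in red left of control in blue, and bars are geometric means of 3. The ratio to Tbx5 at day 8 is 13.01 to 21.2 in KO libraries and 2.95 to 4.45 in control libraries.

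Heart muscle genes had a wider median difference than the factors on log2(FPKM + 1). That scale understates the difference of low genes, as several factors were, so part of the gap may come from the scale. At day 8 the KO mean was 21.8% of the control mean for Tbx5 and 23.3% for Tbx2. For Tnnt2 and Myh6 it was 14.2% and 9.60%. Of a list of 24 sarcomere and hormone genes, 20 were tested at day 8, of which 15 were called lower and 0 higher, with a median log2 difference of -2.33 beside -0.90 for the factors. Tnnt2, cardiac troponin T, had 23.9, 22.1 and 25.6 FPKM in KO libraries at day 8, against 137, 186 and 182 FPKM in control libraries. Its log2 difference was -2.75 ± 0.15 (SE; adjusted p = 3.88e-05, limma), and Myh6, the alpha myosin heavy chain, differed by -3.26 ± 0.20 (SE; adjusted p = 3.88e-05). At day 12 the list had 17 of 22 called lower and 0 higher with a median of -1.02, and at day 10 it had 17 of 22 lower and 1 higher, Ttn, with a median of -1.71. For days 8, 10 and 12, 2.0%, 5.12% and 3.48% of all genes tested were called lower. The shares called higher were 1.28%, 15.0% and 3.22%. Relative to Tnnt2 in the same library, Mef2c, Tbx20, Isl1, Hopx and Irx4 were higher in every KO library than in any control library at days 8, 10 and 12. Tbx20, for example, was 0.345 to 0.443 times Tnnt2 in KO libraries at day 8, against 0.116 to 0.212 times in controls. Nkx2-5 was higher relative to Tnnt2 in every KO library at days 8 and 10 and overlapped at day 12, and Tbx2 overlapped at days 8 and 10 and was higher at day 12. The ratio of Tbx5 to Tnnt2 was 0.0162, 0.0255 and 0.0233 in KO libraries at day 8, against 0.0161, 0.0154 and 0.0112 in controls. At day 10 it was lower, at 0.0255 to 0.0282 in KO libraries, against 0.0286 to 0.0301 in controls, and at day 12 it overlapped.

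Other genes around the factors were described from lists. As background to this and the later lists, 3.32% of all genes tested were called lower at day 5 and 2.0% at day 8. The shares called higher were 7.07% and 1.28%. Of 15 cardiac mesoderm genes, 12 were tested at day 5, of which 10 were called lower and 0 higher, with a median of -1.51 beside 0.13 over all genes tested. Mesp1, which marks the earliest cardiac mesoderm, had 1.06, 1.91 and 1 FPKM in KO libraries at day 5, against 13.7, 16.9 and 18.1 FPKM in controls (log2 difference -2.90 ± 0.16, SE; adjusted p = 1.95e-06, limma). Kdr, a receptor of mesodermal and endothelial progenitors, differed by -3.39 ± 0.12, and Hand1, a basic helix-loop-helix factor, by -2.92 ± 0.14 (SE; adjusted p = 9.88e-08 and 1.04e-06, limma). At day 8, 8 of 12 were called lower and 1 higher, with Hand2 at -1.82 ± 0.19 and Pdgfra at -1.62 ± 0.15 (SE; adjusted p = 5.43e-04 and 2.56e-04, limma). Hand2 had a course much like that of Tbx20, as given below.

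Of 14 signals of the second heart field, 11 were tested at day 5, with 7 called lower and 0 higher, and 13 at day 8, with 1 called lower and 0 higher. Their summed level was 101 to 111 FPKM in KO libraries at day 8, against 139 to 145 FPKM in controls, which did not overlap, whereas Isl1 did. Fgf10, a growth factor made by that field, averaged 2.64 FPKM in KO libraries at day 5, against 8.13 FPKM in controls, and 6.47 FPKM in KO libraries at day 8, against 9.17 FPKM in controls. Bmp5, a bone morphogenetic protein, was the one called lower at both days, at -2.93 ± 0.18 and -1.48 ± 0.15 (SE; adjusted p = 4.20e-06 and 5.67e-04, limma). At day 5 Wnt5a was also lower, at -1.45 ± 0.13, and so was Aldh1a2, which makes retinoic acid, at -1.34 ± 0.15 (SE; adjusted p = 6.73e-05 and 2.11e-04, limma). Among 25 other heart transcription factors, 9 of 18 tested were called lower and 1 higher at day 5, and 2 of 24 lower and 0 higher at day 8. The 2 were Meis1, at -1.28 ± 0.17, and Myocd, the coactivator of serum response factor, at -1.10 ± 0.13 (SE; adjusted p = 0.00270 and 0.00159, limma). Tbx3, the close relative of Tbx2, was lower at day 5, at -1.56 ± 0.13 (SE; adjusted p = 2.79e-05, limma) and did not pass at day 8, with -0.44 ± 0.28 (adjusted p = 0.444, limma). Tbx1, a factor of the pharyngeal part of the second heart field, averaged 0.804 FPKM in KO libraries at day 8, against 1.31 FPKM in controls, and overlapped.

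**Figure D4:**
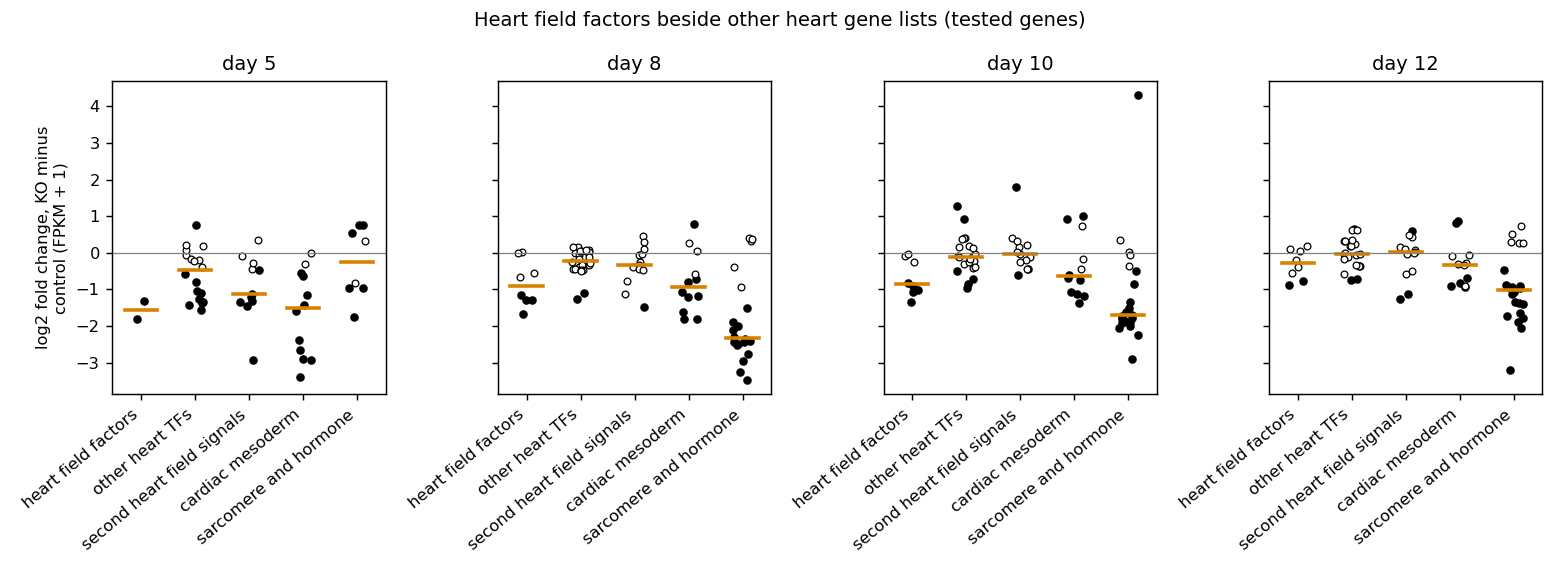
Log2 difference, LncCPR-KO minus control, on log2(FPKM + 1) for each tested gene of the heart field factors and of 4 lists, at days 5, 8, 10 and 12; filled points passed the adjusted threshold of 0.05 and orange bars are medians. At day 8 the median is -0.90 for the factors and -2.33 for the sarcomere and hormone genes, and at day 5 2 factors were tested. This scale understates the differences of low genes.

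Markers of other cell types that use these genes moved in part with the members. Of 12 neuron markers, 2 were tested at day 8 and 1 was called higher, Stmn2, at 1.46 ± 0.17 (SE; adjusted p = 0.00107, limma). The summed level of the list was 23.8 to 34.8 FPKM in KO libraries at day 8, against 11.8 to 12.8 FPKM in controls, and no marker was at 0 in all 6 libraries. Its part in the Isl1 level was not tested. Of 12 endothelial markers, 10 were tested at day 8, with 3 lower and 0 higher, Tek, Cdh5 and Tie1, at -0.84, -0.79 and -0.73 (adjusted p = 0.0293, 0.0102 and 0.0448, limma). Their summed level was 67.0 to 83.3 FPKM in KO libraries, against 103 to 112 FPKM in controls, with none at 0 in all 6 libraries, and their part in the Mef2c level was not tested. Of 12 smooth and skeletal muscle markers, 5 were tested at day 8, with Tagln higher at 0.82 and Des lower at -0.76 (adjusted p = 0.0448 and 0.0226, limma). That list summed to 466 to 623 FPKM in KO libraries and 480 to 610 FPKM in controls, and Myf6 was at 0 in all 6 libraries. Its part in the member levels was not tested.

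Some pluripotency markers were also higher in KO cultures at days 5 to 10. Of 14 pluripotency genes with an entry, 4 of 13 tested were higher and 1 lower at day 5. That lower gene was Tbx3, which is also in the list of other heart transcription factors. Of 14 tested, 4 were higher and 0 lower at day 8, 9 higher and 0 lower at day 10, and none was called at day 12. Of all genes tested, 7.07%, 1.28% and 15.0% were called higher for days 5, 8 and 10. Pou5f1, the core pluripotency factor, averaged 341 FPKM in KO libraries at day 5, against 158 FPKM in controls, and 82.6 FPKM in KO libraries at day 8, against 26.0 FPKM in controls. The list summed to 222 to 287 FPKM in KO libraries at day 8, against 143 to 157 FPKM in controls, and its part in the lower factor levels was not tested. Of 12 endoderm markers, 11 were tested at day 8 with none called, and the list summed to 219 to 255 FPKM in KO libraries and 173 to 357 FPKM in controls. Of 11 trophoblast markers with an entry, 5 were tested at day 8 with 2 lower, Hand1, which is also in the mesoderm list, and Cdx2, at -1.80 and -1.23 (adjusted p = 0.00501 and 0.0280, limma), and 0 higher. That list summed to 34.6 to 38.4 FPKM in KO libraries, against 58.9 to 81.0 FPKM in controls.

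The genes whose course was most like that of each member were ranked by Pearson's r of log2(FPKM + 1) over the 12 means of line and day, among 10559 genes that reached a mean of 5 FPKM in some group. These values describe likeness, and the means share the 36 libraries. Tbx5 was closest to Hspb7, Asb2 and Actn2, with r = 0.995, 0.986 and 0.985, and Hspb7 (a small heat shock protein of muscle) was lower in KO libraries at day 8, at -2.15 on the log2 scale (adjusted p = 1.10e-04, limma). Mef2c was closest to Myh7, Filip1 and Cdh5 (r = 0.991, 0.990 and 0.990), and Tbx20 to Hand2, Smad6 and Pcsk5 (r = 0.994, 0.992 and 0.991). Nkx2-5 was closest to Igf1, Cdh5 and Tie1 (r = 0.984 each), of which Cdh5 and Tie1 are in the endothelial list. Isl1 was closest to Igf2as, Pmp22 and Capn6 (r = 0.994, 0.989 and 0.989). Like Isl1, Capn6 and Pmp22 were lower in KO libraries at day 5, at -3.32 and -1.90 (adjusted p = 1.00e-07 and 2.10e-05, limma), and differed by -0.01 and -0.11 at day 8 (adjusted p = 0.987 and 0.747, limma). Hspb7, Capn6 and Pmp22 were picked for their likeness over these same means. Their differences follow in part from that choice and are no independent support. Tbx2 was closest to Bambi, Cep170 and Bves (r = 0.990, 0.985 and 0.984), and Irx4 to Jph2, Zfp711 and Snai2 (r = 0.990, 0.986 and 0.986). Hopx had the loosest neighbours, Gatad2b, 4933407C03Rik and Crabp2, at r = 0.933, 0.926 and 0.921.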

How the data were processed

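Total RNA of 36 libraries was prepared with a ribosomal RNA removal kit (ScriptSeq Complete Gold) and sequenced, per the labels' protocols, which name another HiSeq model than the design text. The authors deposited FPKM values in 6 tables, 1 per day. TopHat, Cufflinks and mm9 are named per the submitters' processing notes. Versions, annotation and strand setting are not given in the sources used here. FPKM hold no counts, so depth is known only relatively: the value of a single fragment in low genes put it at 0.563 to 1.83 times that of control library 1 of day 0.

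Each day was fitted on log2(FPKM + 1) with limma 3.58.1 in R 4.3.3 (lmFit, eBayes with trend), among genes with a mean of at least 1 FPKM, with Benjamini-Hochberg adjustment and a threshold of 0.05. The change between days used the 12 groups. A fold change on this scale understates that of low genes. The fit was tested on simulated data. Alternatives were a pseudocount of 0.1, minimums of 0.3 and none, median-of-ratios rescaling, eBayes without trend, a replicate block, leaving out each library, and, chosen after seeing the data, leaving out libraries whose 10 highest entries held over 20%. Exact permutation tests used scipy 1.17.1.

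Members and gene lists were chosen with earlier results of these data known, so counts over a list are descriptions. Named genes are the members, up to 3 called genes per list with the largest difference at days 5 and 8, a panel of heart genes, and the 3 genes most like each member. Ttn was named after its value was seen. Same-day libraries correlated at r = 0.987 to 0.995 within a group, and no pair was identical. Member values were at 0 in 13 of 288 cases. mt-Rnr2 reached 69239 FPKM in some libraries and was at 0 in others. Promoter windows came from RefSeq on GRCm38.p6.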

Additional observations from a re-analysis of the deposited data

Results flagged for a closer look

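On log2(FPKM + 1), the KO difference of 6 factors changed between days by a test of the change itself (limma over 36 libraries). Of these, Tbx5, Tbx2 and Nkx2-5 reached the minimum mean through their control level. All 6 were below 1 FPKM in both lines at days 0 and 3, where that scale leaves little room for a difference. The F test can thus pass without a change in the ratio of the lines. For Tbx5 the KO mean was 26.1%, 21.8%, 22.7% and 40.8% of the control mean for days 5, 8, 10 and 12. The adjusted p of the F test over the 6 days was 3.04e-08 for Tbx5, 5.92e-08 for Tbx20, 2.52e-06 for Tbx2, 3.99e-06 for Mef2c, 8.32e-06 for Isl1 and 1.70e-04 for Nkx2-5. The day 8 difference minus the day 5 difference was 1.32 for Isl1, -1.17 for Mef2c, -0.99 for Tbx5 and -0.74 for Tbx2 on the log2 scale. At a pseudocount of 0.1 the change of Isl1 still passes, those of the other three do not, and that of Tbx2 turns to 0.07. As a share of the control mean, the KO mean was higher at day 8 than at day 5 for Mef2c (28.9% and 22.3%) and Tbx2 (23.3% and 14.9%). The day 12 difference minus the day 8 difference was 1.29 for Mef2c, 1.11 for Tbx20 and 0.75 for Tbx2, all toward a smaller difference. The Tbx2 changes are lost when libraries of any one replicate number are left out, and those of Mef2c, the day 12 change of Tbx20 and the F test of Nkx2-5 are lost without number 2 (adjusted p = 0.0706 to 0.152). Without number 2, Tbx5 falls below the minimum level and is not tested.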

How the results depend on the processing

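For days 5, 8, 10 and 12, the members called numbered 2, 4, 5 and 2. With no minimum level they numbered 2 at day 8 and 0 at day 12. Without the libraries dominated by 10 entries they numbered 1 at day 5, where the Isl1 mean falls below 1 FPKM, and 0 at day 12. Leaving out each library in turn gave 1 to 2 at day 5 and 0 to 1 at day 12. With the replicate number as a block, 1 was called at day 3 (Hopx) and 1 at day 12. Same-number correlations of deviations ran from -0.12 to 0.27. Of 18 KO libraries, 5 correlated best with the control of their own number. With 3 libraries per group, these values cannot settle whether the numbers pair the libraries. The count of members whose difference changed between days was 6 and ran from 4 to 7. At a pseudocount of 0.1 the Tbx2 change between days 5 and 8 reversed to 0.073. Of 512 alternative values over 48 results of single members, 444 kept their direction and side of the threshold, 35 lost it, 12 gained it and 21 changed sign. Of the 21, the Tbx2 value above belongs to a called result, and the other 20 belong to results that were not called, with no call under the alternative either. Leaving out each library, the day 8 difference ran from -0.098 to 0.083 for Isl1 and from -0.163 to 0.140 for Hopx. At day 10 it ran from -0.241 to 0.0047 for Hopx and from -0.112 to 0.032 for Irx4, and at day 12 from -0.123 to 0.282 for Isl1 and from -0.204 to 0.231 for Hopx. Leaving out each replicate number, the change from day 8 to day 12 ran from -0.375 to 0.061 for Nkx2-5, from -0.146 to 0.323 for Isl1 and from -0.220 to 0.285 for Hopx. Without the dominated libraries, Isl1 was at 0.042 and Hopx at -0.043 at day 8, and Irx4 at 0.032 at day 10. That setting left 1 KO library at day 8 and 1 control library at day 3, so its values at those days rest on a single library of a line. After rescaling, Hopx was at -0.063 at day 8 and -0.031 at day 12. The cause was not tested for any of these. Over all genes, the calls at days 0, 3, 5, 8, 10 and 12 numbered 1770, 210, 1293, 417, 2609 and 878. Leaving out 1 library gave 797 to 1041, 186 to 332, 833 to 996, 190 to 665, 1540 to 2574 and 317 to 583, and the other settings 774 to 1817, 2 to 524, 424 to 1506, 136 to 1326, 775 to 2825 and 218 to 991. Rescaling moved the median of all genes by over 0.1 at days 3, 5, 8 and 10, at day 8 to -0.02 from 0.09. FPKM hold no counts, so no counting interval could be given for members near 0.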
